A study of Caenorhabditis elegans with 18 samples.

Results

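Of the 12 libraries of experiment 1, 4 carried sperm RNA at levels far above the others of their own groups: WT control 1 and ire-1 control 1 among the controls, WT cold 2 and ire-1 cold 2 among the cold worms. They are called sperm-rich below, their values are listed in that order, and each was set against the other 2 libraries of its group. The whole series holds 18 libraries of whole Caenorhabditis elegans, 12 in experiment 1 and 6 in experiment 2. WT worms were strain N2, and the mutant was ire-1(ok799), a deletion allele of the endoplasmic reticulum stress sensor IRE-1. All worms grew at 15 °C from egg to the first day of adulthood. Control worms were collected then, and cold worms after a further 24 h at 2 °C, so the cold worms were also 24 h older and had no control of the same age. Experiment 1 held 3 libraries in each of 4 groups (the controls of WT and ire-1, and the cold worms of each), and experiment 2 held WT control 4 to 6 and WT cold 4 to 6. The labels do not say what a replicate number marks. The sperm-rich libraries carry number 1 in both control groups and number 2 in both cold groups, so high sperm RNA and the replicate number within a condition cannot be told apart.

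Hermaphrodites of this species make sperm during the last larval stage and then switch their germline to oocytes for the rest of life. Spermatids hold large amounts of major sperm protein (MSP), a small cytoskeletal protein that drives their crawling, and pack their chromatin with small basic proteins. Oocytes store maternal RNA, take up yolk made by the intestine and are enclosed in an eggshell after fertilisation. The collagen cuticle of the adult is laid down around the last moult by the epidermis.

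Because the 4 libraries were chosen by their sperm RNA, every difference between them and the other libraries is given as a description, with its size and error and without a p-value. Levels are given as CPM, counts scaled to a common library size, and differences are log2 differences ± SE from one fit to all 12 libraries (edgeR), with strain and condition held as a group term. A gene is counted as higher or lower where the sperm-rich library lay outside both others of its group in 4 of 4 groups. A library of experiment 1 held between 20621965 and 29518450 counts in total, and one of experiment 2 between 10449794 and 16814732. Near 1 CPM, a value in experiment 1 rests on few reads, and counting error is then a large part of the spread. In RNA of whole animals, fewer cells of a type and less RNA per cell cannot be told apart. The ire-1 mRNA itself was at 92.9, 91.3 and 168 CPM in WT control 1 to 3 and at 36.7, 53.9 and 53.1 CPM in ire-1 control 1 to 3. It stood at 192, 184 and 187 CPM in WT cold 1 to 3 and at 59.5, 41.3 and 51.6 CPM in ire-1 cold 1 to 3, so that the strains did not overlap in either condition.

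The sperm level is given here as the summed CPM of MSP genes, sperm chromatin genes and small sperm gene families. It was 2729 CPM in WT control 1 and 25.3 and 13.7 CPM in WT control 2 and 3. In ire-1 control 1 to 3 it was 2556, 60.3 and 64.7 CPM. In WT cold it was 650 CPM in library 2 and 13.2 and 44.7 CPM in libraries 1 and 3, and in ire-1 cold it was 2142 CPM in library 2 and 29.5 and 46.4 CPM in libraries 1 and 3. The lowest of the 4 sperm-rich libraries was therefore WT cold 2 at 650 CPM, and the highest other library of experiment 1 was ire-1 control 3 at 64.7 CPM. The sperm-rich library stood 143-fold above the others of its group in WT control, 40.6-fold in ire-1 control, 26.2-fold in WT cold and 57.2-fold in ire-1 cold. In experiment 2 the same sum was 60.3, 232 and 15.3 CPM in WT control 4 to 6 and 5.72, 157 and 4.85 CPM in WT cold 4 to 6. No library there reached the 650 CPM of WT cold 2. Relative to the others of its group, however, WT cold 5 also stood far above.

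**Figure D1:**
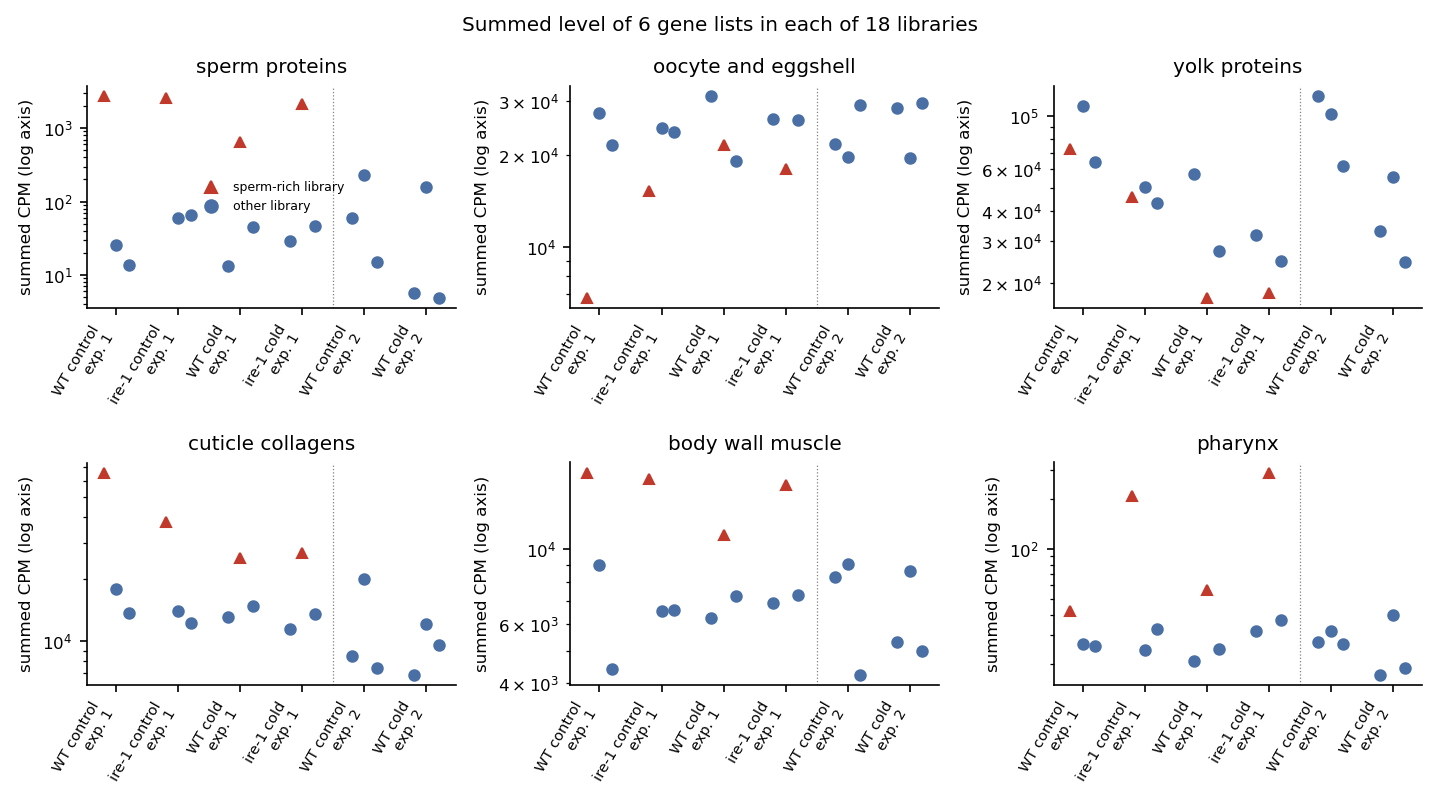
Summed CPM of 6 gene lists (log axis) in each of 18 libraries, by group and experiment, with the 4 sperm-rich libraries as red triangles and the other 14 as blue circles. The sperm-rich libraries lie above both others of their group for sperm proteins, collagens, muscle and pharynx in all 4 groups. For oocyte genes WT cold 2, at 21470 CPM, lies between the others of its group.

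Across 14344 tested genes, 3179 (22.2%) were at least 2-fold higher in the sperm-rich libraries and 97 (0.676%) at least 2-fold lower. With no minimum fold, 4384 (30.6%) were higher and 1828 (12.7%) lower. The higher side thus held the large differences and the lower side many small ones: 1564 genes were at least 4-fold higher against 29 lower, and 976 were at least 16-fold higher. The median difference over all tested genes was 0.15, and the quartiles were -0.32 and 1.03. That median depends on the scaling of the libraries, being 0.02 with DESeq2's size factors and 0.29 with upper-quartile factors, so differences of a list are to be read against it. The count of lower genes moved with it, to 153 with DESeq2's size factors and 62 with upper-quartile factors. Without WT cold 2 the count was 421, but the WT cold group then drops out of the 4 of 4 rule, which makes the rule easier to pass.

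All 27 tested MSP genes of 31 in the table were at least 16-fold higher, with differences from 5.22 to 6.77. These genes are near-identical copies that can share reads, so single members are uncertain and the family is best read as a sum. The summed MSP level was 1163 CPM in WT control 1 against 7.34 and 4.16 CPM in WT control 2 and 3, and 1132 CPM in ire-1 control 1 against 26.1 and 27.8 CPM. It was 287 CPM in WT cold 2 against 4.54 and 19.5 CPM, and 955 CPM in ire-1 cold 2 against 11.9 and 20.3 CPM. The member with the largest difference at 10 CPM or more was msp-152 (WBcel235 chromosome II, 4933027 to 4933410). Its level was 41.6, 36.9, 10.04 and 30.7 CPM in the 4 sperm-rich libraries and at most 0.819 CPM in the other 8, a difference of 6.30 ± 0.46.

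Sperm chromatin genes and small sperm families were as far apart, with 32 of 33 tested members at least 2-fold higher, 31 of them at least 16-fold, and a median of 5.98. The chromatin gene spch-1 was at 43.7, 58.4, 6.31 and 37.1 CPM in the sperm-rich libraries and at no more than 1.80 CPM in any other library of experiment 1 (5.62 ± 0.34). The gene nspd-3, of a nematode-specific family of small proteins, differed by 6.43 ± 0.37, and ssq-2, of a sperm-specific family, by 6.29 ± 0.41. In each of these genes WT cold 2 was the lowest of the 4 sperm-rich libraries and still above the other 8.

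Genes with a known role in sperm form, activation or fertilisation were less uniform. Of 35 tested, 26 were at least 2-fold higher and the median was 3.15. The sperm phosphatase genes gsp-3 and gsp-4 (6.10 ± 0.38 and 5.81 ± 0.47) and spe-11, whose product the sperm brings into the egg (5.44 ± 0.51), led the named members. Lower differences belonged to fer-1, a membrane fusion gene of the ferlin family (3.06 ± 0.31), and spe-9, needed on the sperm surface for fertilisation (3.15 ± 0.47). The level of fer-1 was 3.41, 8.36, 1.90 and 6.72 CPM in the sperm-rich libraries and no more than 0.964 CPM elsewhere in experiment 1. The presenilin gene spe-4, which acts while spermatids form, was at 10.8, 10.99, 1.33 and 6.25 CPM against at most 0.993 CPM. Another 4 members of the list were lower in 4 of 4 groups at any fold. They included spe-44, a transcription regulator of early sperm development (-0.53), and cpb-1, a translational regulator active in spermatocytes (-0.67), while spe-39 stood at -0.52 and spe-48 at -0.34. These 4 were picked out after their values were seen.

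Most of the 16-fold set lay outside the sperm lists. It held 976 genes, 6.8% of those tested, and of these 71 were members of the 3 sperm lists, 874 were in no list and 712 had only a sequence name or identifier. Gene families, read from the letters of the gene names after the values were seen, showed where the named ones fell. The tau-tubulin kinase family ttbk had 7 of 8 tested members at least 16-fold higher, with ttbk-8.1 at 6.26 ± 0.48. The neprilysin peptidase family nep had 8 of 19, the scramblase family scrm 4 of 7, the msrp family 6 of 6, the irld family 6 of 9 and the ssp family of MSP-domain proteins 9 of 11. Among C-type lectins, 9 of 95 tested genes were at least 16-fold higher, a share not far from the 6.8% of all tested genes, while the list median was 0.45. One of them, clec-73, was at 15.7, 27.4, 3.61 and 23.1 CPM in the sperm-rich libraries and at no more than 0.627 CPM in the other 8.

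The X chromosome carried few of these genes. Of 1956 tested X-linked genes 10 (0.511%) were at least 16-fold higher, against 4.36% of those on chromosome III, 5.96% on V, 8.01% on II, 9.04% on I and 11.9% on IV. At 2-fold the X chromosome was not low: 24.2% of its tested genes were higher, within the range of 15.5% to 26.2% on the 5 autosomes. Genes lower in 4 of 4 groups made up 2.1% of tested X-linked genes and 10.7% to 18.5% of those on the autosomes. Because the libraries were chosen on sperm RNA, these shares describe the set and are given without a test.

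**Figure D2:**
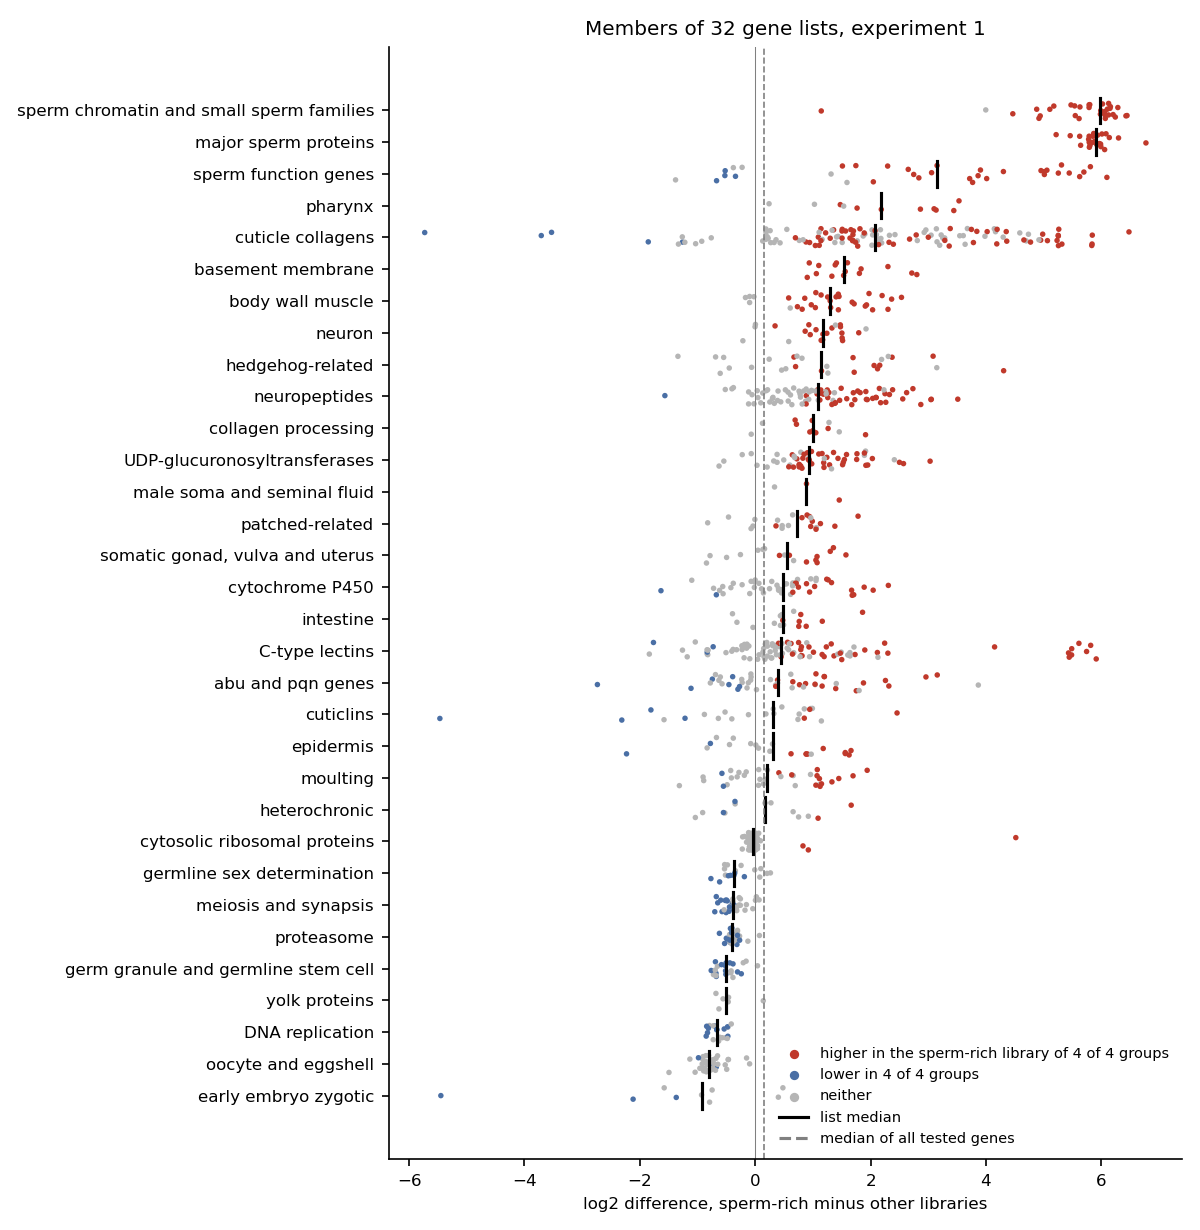
Log2 difference between sperm-rich and other libraries of experiment 1 for every tested member of 32 gene lists, 1 point per gene, with the list median as a black line and the median of all tested genes (0.15) as a dashed line. MSP and sperm chromatin genes lie near 6, collagens spread from -5.73 to 6.48, and oocyte genes all lie below 0. The collagen at -5.73, col-165, averaged 1.29 CPM in the other libraries.

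Oocyte and eggshell genes were lower together. All 41 members were tested and all 41 had a difference below 0, with a median of -0.80, although only 3 were outside both others of their group in 4 of 4 groups, a share of 7.32% against 12.7% of all tested genes. With DESeq2's size factors that count was 8, and upper-quartile factors left 1 of the 41 above 0. The summed level was 6774 CPM in WT control 1 against 27460 and 21480 CPM, and 15220 CPM in ire-1 control 1 against 24510 and 23820 CPM. In ire-1 cold 2 it was 17910 CPM against 26230 and 26010 CPM. In WT cold 2 it was 21470 CPM, between 31160 CPM in library 1 and 19050 CPM in library 3, so that this group overlapped. The within-group difference of the sum was -1.84 in WT control, -0.67 in ire-1 control, -0.18 in WT cold and -0.54 in ire-1 cold.

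Single oocyte genes followed the same layout. The yolk receptor gene rme-2 was at 179 CPM in WT control 1 against 1200 and 1006 CPM, at 663.5 CPM in ire-1 control 1 against 1249 and 1183 CPM, and at 825 CPM in ire-1 cold 2 against 1315 and 1295 CPM. In WT cold 2 its 841 CPM lay between 1451 and 794 CPM (-1.04 ± 0.30 over all groups). The translational regulator puf-5 differed by -1.13 ± 0.34, the oocyte maturation gene oma-1 by -0.77 ± 0.22 and the eggshell gene cbd-1 by -0.86 ± 0.28, each lower in 3 of 4 groups. The eggshell proteoglycan gene cpg-3 was lower in 4 of 4 groups: 303 CPM against 1201 and 902 CPM in WT control, 341 CPM against 737 and 682 CPM in ire-1 control, 750 CPM against 902 and 1007 CPM in WT cold, and 407 CPM against 796 and 688 CPM in ire-1 cold (-0.98 ± 0.19). The 2 members nearest to 0 were the eggshell genes perm-4 (-0.10 ± 0.19) and perm-2 (-0.15 ± 0.19), singled out after their values were seen.

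Other germline programs were lower by less and more evenly. Of 23 germ granule and germline stem cell genes, 13 were lower in 4 of 4 groups at any fold (median -0.51), and of 30 meiosis and synapsis genes, 14 were (median -0.39), where 12.7% of all tested genes were. With DESeq2's size factors these counts were 15 and 20, and with upper-quartile factors 6 and 12. The nuclear Argonaute gene hrde-1 differed by -0.76 ± 0.18, the germ granule helicase gene glh-2 by -0.68 ± 0.17, the synapsis checkpoint gene pch-2 by -0.70 ± 0.16 and the axis gene him-3 by -0.40 ± 0.12. The level of hrde-1 was 248 CPM in WT control 1 against 720.5 and 686 CPM, and 804 CPM in WT cold 2 against 1086 and 830 CPM. Among 18 genes of germline sex determination, 7 were lower in 4 of 4 groups (median -0.36), and none was higher. That count was 10 with DESeq2's size factors and 3 with upper-quartile factors. They included fog-1, which commits germ cells to sperm (-0.77 ± 0.21), and gld-1, a translational repressor of the early meiotic germline (-0.47 ± 0.15). In this list the sperm-promoting fog-1 was thus lower in libraries that were chosen for high sperm RNA.

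DNA replication genes were lower in 11 of 21 cases in 4 of 4 groups, with a median of -0.66 and no member above 0, where 12.7% of all tested genes were lower. The count was 16 with DESeq2's size factors and 7 with upper-quartile factors. The ribonucleotide reductase gene rnr-2 was at 248 CPM in WT control 1 against 925 and 740 CPM, at 337 CPM in ire-1 control 1 against 619.5 and 640 CPM, at 653 CPM in WT cold 2 against 690 and 735 CPM, and at 375 CPM in ire-1 cold 2 against 650 and 617 CPM (-0.84 ± 0.20). The helicase gene mcm-7 differed by -0.83 ± 0.19, and tyms-1, named for thymidylate synthetase, by -1.22 ± 0.22. Proteasome genes had 13 of 33 members lower in 4 of 4 groups (median -0.40), 28 of 33 with DESeq2's size factors and 3 of 33 with upper-quartile factors. Nuclear pore genes (npp) had 12 of 26 and Integrator genes (ints) 6 of 11, both families read from gene names after the values were seen, again beside 12.7% of all tested genes. Genes of cytosolic ribosomal proteins sat near the centre, with a median of -0.04 that was 0.10 under upper-quartile factors.

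The lower genes at 10 CPM or more were few. Of the 97 genes at least 2-fold lower, 15 averaged 10 CPM or more in the other libraries and 82 averaged less. The furthest below the others among the 15 was F15E6.3, at 5.50, 4.90, 1.64 and 2.14 CPM in the sperm-rich libraries against 25.11 and 12.5, 28.5 and 26.3, 7.06 and 6.19, and 5.88 and 5.83 CPM in the others of each group (-1.93 ± 0.24). The most abundant of them was sip-1, a small heat shock protein gene of the germline and embryo. Its level was 172 CPM in WT control 1 against 1376 and 835 CPM, 562 CPM in ire-1 control 1 against 1082 and 965 CPM, 709 CPM in WT cold 2 against 1221 and 782 CPM and 579 CPM in ire-1 cold 2 against 1083 and 1092 CPM (-1.14 ± 0.30).

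Embryonic RNA was scarce in all libraries. Of 25 zygotic genes of the early embryo only 9 passed the filter on low counts. Of these, 3 were at least 2-fold lower in the sperm-rich libraries, where 0.676% of all tested genes were. Over the 9, 7 differences were below 0 and 2 above, with a median of -0.93. The marker pes-10 averaged 0.136 CPM in the sperm-rich libraries and 0.517 CPM in the others, lower in 3 groups and higher in WT cold. The hatching protease gene hch-1 was at 0.450 and 1.87 CPM in WT control 2 and 3, at 2.40 and 4.51 CPM in ire-1 control 2 and 3 and at 0.828 and 2.36 CPM in ire-1 cold 1 and 3. It was at 0.078 and 0.193 CPM in WT cold 1 and 3, and in the 4 sperm-rich libraries it was at 0.043 CPM or less, so no fold is given. The cuticlin gene cut-3, which is not in the embryo list, had the same layout. It was at 9.27 and 6.74 CPM in WT control 2 and 3 and at no more than 0.171 CPM in the 4 sperm-rich libraries. The collagen gene dpy-14 is counted with the collagens below. Its level was 17.6 and 13.3 CPM in WT control 2 and 3 and 8.85 and 15.9 CPM in ire-1 control 2 and 3. In the sperm-rich libraries it was at 0.951 CPM or less. These 3 genes were chosen after their values were seen.

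Yolk protein RNA did not follow the oocyte genes in the control groups. The summed vitellogenin level was 72860 CPM in WT control 1, between 109600 and 63900 CPM, and 45780 CPM in ire-1 control 1, between 50520 and 43260 CPM. In cold it was 17240 CPM in WT cold 2 against 57300 and 27140 CPM, and 18130 CPM in ire-1 cold 2 against 31700 and 24560 CPM. None of the 6 genes was outside both others in 4 of 4 groups, although with DESeq2's size factors 4 of 6 were lower in 4 of 4. The within-group difference of the sum was -0.20 and -0.03 in the control groups and -1.19 and -0.62 in the cold groups, so the sum overlapped in both control groups and in neither cold group.

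Cuticle collagens were higher as a family and spread more widely than any other list. Of 128 tested members of 176, 56 were at least 2-fold higher, 20 of them at least 16-fold, 5 were at least 2-fold lower, and the median was 2.08. Of all tested genes, 22.2% were at least 2-fold higher, 6.8% at least 16-fold higher and 0.676% at least 2-fold lower. The summed collagen level was 65530 CPM in WT control 1 against 17940 and 13670 CPM, and 37590 CPM in ire-1 control 1 against 13970 and 12210 CPM. It was 25320 CPM in WT cold 2 against 13090 and 14770 CPM, and 26810 CPM in ire-1 cold 2 against 11530 and 13580 CPM. The groups did not overlap with their sperm-rich library in any of the 4.

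Some collagens were near absent from the other libraries and abundant in the sperm-rich ones. The largest difference at 10 CPM or more among all genes belonged to col-149 (WBcel235 chromosome V, 10291701 to 10292869), at 223, 56.04, 6.73 and 23.9 CPM in the sperm-rich libraries and at no more than 1.60 CPM elsewhere in experiment 1 (6.48 ± 0.61). The collagen col-139, picked after its values were seen, reached 1969 CPM in WT control 1 against 22.3 and 12.1 CPM, 1654 CPM in ire-1 control 1 against 26.7 and 56 CPM, 549 CPM in WT cold 2 against 20.6 and 46.5 CPM, and 1530 CPM in ire-1 cold 2 against 33.5 and 111 CPM. Collagens that were abundant everywhere differed by less. The adult-stage collagen col-19 was at 2977, 1774, 1021 and 1008 CPM in the sperm-rich libraries and between 376 and 602 CPM in the other 8 (1.69 ± 0.22), and col-119 differed by 0.70 ± 0.19, both chosen after their values were seen. The opposite direction was held by col-165, dpy-14, col-121, dpy-17 and col-43, though col-165 and col-121 averaged only 1.29 and 1.37 CPM in the other libraries. Of these dpy-17, a collagen gene that sets body shape, was at 3.03, 2.05, 1.67 and 2.83 CPM in the sperm-rich libraries against 7.07 and 10.7, 14.7 and 22.4, 2.95 and 2.71, and 7.71 and 16.1 CPM (-1.85 ± 0.36).

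Genes of moulting and of the larval epidermis did not share one direction with the collagens. The 35 moulting genes had 10 members at least 2-fold higher and 2 lower at any fold, and their median of 0.21 lay close to that of all genes. The moulting regulator nhr-23 was lower in 4 of 4 groups (-0.55 ± 0.16), while lrp-1, a receptor of the epidermal surface needed for moulting, was higher in 4 of 4 (1.45 ± 0.23). The larval collagen dpy-7 and the moulting gene mlt-10 had differences of -1.22 ± 0.55 and -0.90 ± 0.35, with 3 of 4 groups lower. The collagens rol-6 and bli-1 had differences of 2.17 ± 0.83 and 2.19 ± 0.63 at levels of at most 4.41 CPM. Cuticlins had 1 member at least 2-fold higher (cut-4, 2.46) and 4 lower (cut-3, cutl-2, cutl-9 and cutl-25). Hedgehog-related genes, which in this species are secreted largely by epidermal cells, had 9 of 27 tested members at least 2-fold higher (median 1.15), led by grd-10 at 30.9, 19.3, 6.39 and 10.2 CPM against at most 1.80 CPM (4.31 ± 0.26). In the epidermis list, 5 of 21 were at least 2-fold higher, or 23.8% where 22.2% of all tested genes were, and 1 was lower (ifa-3, an intermediate filament gene, -2.23 ± 0.48 at under 1 CPM). The higher members included the transcription factor gene elt-3 (1.66 ± 0.20) and mup-4, which ties the epidermis to the cuticle (1.63 ± 0.18).

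Basement membrane genes were higher without exception. All 15 were higher in 4 of 4 groups and 13 at least 2-fold, with a median of 1.53, where 30.6% and 22.2% of all tested genes were. The perlecan gene unc-52 was at 309 CPM in WT control 1 against 46.5 and 49.4 CPM, at 538 CPM in ire-1 control 1 against 69.4 and 71.5 CPM, at 160 CPM in WT cold 2 against 84.1 and 39.2 CPM, and at 298 CPM in ire-1 cold 2 against 71.4 and 74.4 CPM (2.30 ± 0.23). The laminin genes lam-2 and epi-1 differed by 1.81 ± 0.13 and 1.84 ± 0.19, and hemicentin him-4 by 2.72 ± 0.23.

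Body wall muscle genes had 20 of 30 members at least 2-fold higher, 25 at any fold, and a median of 1.30. Of all tested genes, 22.2% were at least 2-fold higher and 30.6% higher at any fold. The major myosin heavy chain gene unc-54 was at 1352, 3462, 1455 and 2797 CPM in the sperm-rich libraries against 626 and 120, 467 and 625, 630 and 602, and 702 and 684 CPM in the others of each group (1.97 ± 0.32). The second body wall myosin gene, myo-3, differed by 2.37 ± 0.22, and unc-22, which encodes the giant muscle protein twitchin, by 2.54 ± 0.26. In the pharynx list 8 of 11 tested genes were at least 2-fold higher (median 2.19). Here the ire-1 libraries held more: the summed level was 210 CPM in ire-1 control 1 against 24.3 and 32.5 CPM and 290 CPM in ire-1 cold 2 against 31.8 and 37.2 CPM, but 42.2 CPM in WT control 1 against 26.4 and 25.7 CPM and 56.6 CPM in WT cold 2 against 20.98 and 24.6 CPM. The pharyngeal myosin gene myo-2 was at 56.4 and 88.5 CPM in the sperm-rich ire-1 libraries and at 2.22 and 4.37 CPM in the sperm-rich WT libraries.

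Neuronal genes had 12 of 22 members at least 2-fold higher (54.5%, median 1.17) and neuropeptide genes 39 of 87 (44.8%, median 1.08), beside 22.2% of all tested genes. The GABA synthesis gene unc-25 was at 12.6, 16.5, 6.62 and 11.13 CPM in the sperm-rich libraries and at no more than 4.97 CPM elsewhere (1.80 ± 0.15), and the synaptic vesicle gene rab-3 differed by 1.05 ± 0.20. Among families read from gene names after the values were seen, the potassium channel family twk had 16 of 31 members at least 2-fold higher, the ligand-gated channel family lgc 18 of 30 and the bestrophin family best 15 of 23. UDP-glucuronosyltransferases, which conjugate small molecules, had 21 of 58 (36.2%, median 0.94), and genes of the somatic gonad, vulva and uterus 6 of 18 (33.3%, median 0.55). Cytochrome P450 genes had 10 of 50 (20%, median 0.49), a share just under that of all tested genes. The intestine list had 2 of 16 at least 2-fold higher, a share below the 22.2% of all tested genes, and a median of 0.48. Its regulator gene elt-2 differed by 0.44 ± 0.24, with 1 of 4 groups lower. Shares near or below that 22.2% were also found in 4 other lists. They were 4 of 22 patched-related genes (18.2%), 3 of 12 collagen processing genes (25%), 12 of 47 abu and pqn genes (25.5%) and 2 of 13 heterochronic timing genes (15.4%).

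Markers of male soma were at low levels throughout. The summed level of the list was 29.3 CPM in WT control 1 against 11.8 and 8.99 CPM, 17.2 CPM in ire-1 control 1 against 11 and 9.55 CPM, 15.1 CPM in WT cold 2 against 7.41 and 11.6 CPM, and 16.8 CPM in ire-1 cold 2 against 10.07 and 13.3 CPM, so the sperm-rich library was the highest in each group. Only 3 of 16 genes passed the filter, and 2 of these were higher in 4 of 4 groups: swm-1, a protease inhibitor gene also used in sperm activation (0.89 ± 0.20), and mab-3, a transcription factor gene of male development (1.46 ± 0.32 at under 1 CPM). The male sensory neuron genes pkd-2 and lov-1 had 0 to 2 reads in each library of experiment 1, and the seminal fluid protease gene try-5 was between 0.221 and 1.03 CPM and higher in 2 of 4 groups. The part of these male levels in the other results was not tested. Of the early endoderm genes med-1 had 0 reads in all 12 libraries and end-1 had 0 to 5.

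**Figure D3:**
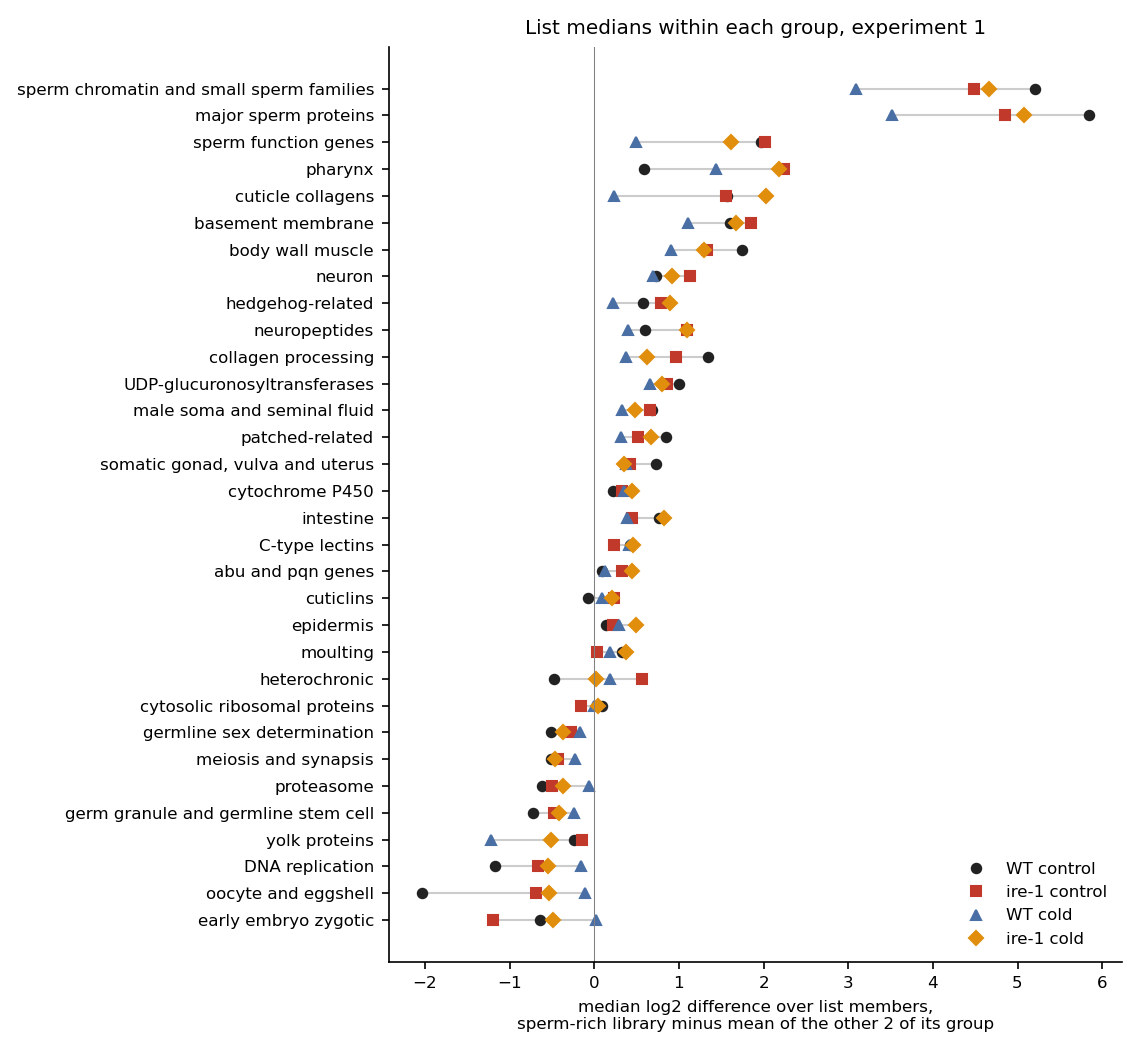
Median log2 difference over the members of each list within each of the 4 groups of experiment 1, sperm-rich library minus the mean of the other 2, with 0.5 CPM added before the log. WT cold, the group with the smallest sperm difference, lies nearest 0 for most lists, and WT control has the lowest oocyte median at -2.04.

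The size of the differences varied between the 4 groups, and so did the direction in some lists. The median MSP difference was 5.84 in WT control, 4.85 in ire-1 control, 3.52 in WT cold and 5.08 in ire-1 cold. In the same order the basement membrane median was 1.60, 1.85, 1.11 and 1.67. The collagen median was 1.57, 1.55, 0.24 and 2.02, and the oocyte median -2.04, -0.69, -0.11 and -0.53. The heterochronic median was -0.47, 0.57, 0.19 and 0.02, so its direction was not shared, and the pharynx median was 0.59, 2.24, 1.44 and 2.18. The yolk median was -0.24, -0.14, -1.22 and -0.51. No test of a difference between groups is given, because each group held 1 sperm-rich library and that library was chosen by its sperm RNA.

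The question then is whether the same programs vary with sperm RNA in the 14 libraries that were not chosen. In experiment 2, WT control 6 and WT cold 5 stood apart from their groups: WT control 6 had 249 CPM of neuropeptide RNA against 647 and 689 CPM in WT control 4 and 5, and WT cold 5 had 651 CPM against 294 and 265 CPM in WT cold 4 and 6. Their intestinal and oocyte levels were likewise nearer to the libraries of the other condition, with 2927 CPM of intestinal RNA in WT control 6 against 6083 and 7456 CPM, and 4342 CPM in WT cold 5 against 1950 and 1408 CPM. Whether these 2 libraries carry the label of the other condition was not tested. Such an exchange would alter every deviation in experiment 2, so r is also given without them, a setting added after seeing the data. Each level was the summed CPM of a list, in which abundant members weigh most, taken as its log2 deviation from its group mean. The sums of 8 lists chosen for this purpose were compared with the sperm level. The p-values came from exact two-sided permutations within groups (576 permutations), adjusted over the 8 lists.

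Neuropeptide genes varied most closely with the sperm level over the 14 libraries (Pearson r = 0.910, exact permutation p = 0.0035, adjusted p = 0.0208; Spearman rho = 0.930, exact permutation p = 0.0052). Hedgehog-related genes gave r = 0.803 (exact permutation p = 0.0052, adjusted p = 0.0208; rho = 0.842, p = 0.0122). Cuticle collagens gave r = 0.762 (exact permutation p = 0.026, adjusted p = 0.0472; rho = 0.771, p = 0.0226). Oocyte and eggshell genes varied the other way, with r = -0.807 (exact permutation p = 0.0295, adjusted p = 0.0472; rho = -0.754, p = 0.0434). Moulting genes gave r = -0.713 (exact permutation p = 0.026, adjusted p = 0.0472; rho = -0.701, p = 0.066). The moulting sum need not stand for most of its members. In the sperm-rich libraries its within-group differences were -0.62, -0.19, -0.14 and -0.18, while 23 of 35 members had a difference above 0. Meiosis genes gave r = -0.727 (exact permutation p = 0.0573, adjusted p = 0.0764; rho = -0.574, p = 0.144), yolk genes r = 0.515 (exact permutation p = 0.205, adjusted p = 0.234; rho = 0.424, p = 0.295) and embryonic genes r = 0.061 (exact permutation p = 0.759, adjusted p = 0.759; rho = 0.064, p = 0.812).

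These p-values treat the libraries of a group as free of one another, while same-numbered WT and ire-1 libraries of a condition deviated together. With those pairs permuted together, which leaves 144 exact permutations, the adjusted p was 0.0556 for each of the 5 lists that had passed, with raw p from 0.00694, the smallest possible, to 0.0347, so none of the 5 calls held. None of the 5 relations passed the threshold within an experiment either. Experiment 1 alone, with 8 libraries, gave r = 0.900 for neuropeptides, 0.857 for hedgehog-related genes, 0.721 for collagens, -0.573 for oocyte genes and -0.734 for moulting genes, but its 16 permutations allow no p below 0.125. Experiment 2 alone, with 6 libraries, gave r = 0.922, 0.867, 0.766, -0.977 and -0.963 for the same lists in that order, and its 36 permutations allow no p below 0.0278. The lowest adjusted p there was 0.0556. Leaving out the 2 libraries farthest from the median sperm level, WT control 5 and WT cold 5, gave r = 0.943, 0.752, 0.496, -0.694 and -0.735, and leaving out WT control 6 and WT cold 5 gave r = 0.713, 0.866, 0.761, -0.531 and -0.600, in exact permutation tests with no adjusted p below 0.333. The 5 passing calls thus rest on all 14 libraries permuted without the pairing, while the sign of r was the same in each of these subsets. For meiosis and yolk genes the sign was not: experiment 1 alone gave r = 0.437 for meiosis and -0.507 for yolk genes, against -0.981 and 0.857 in experiment 2 alone.

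**Figure D4:**
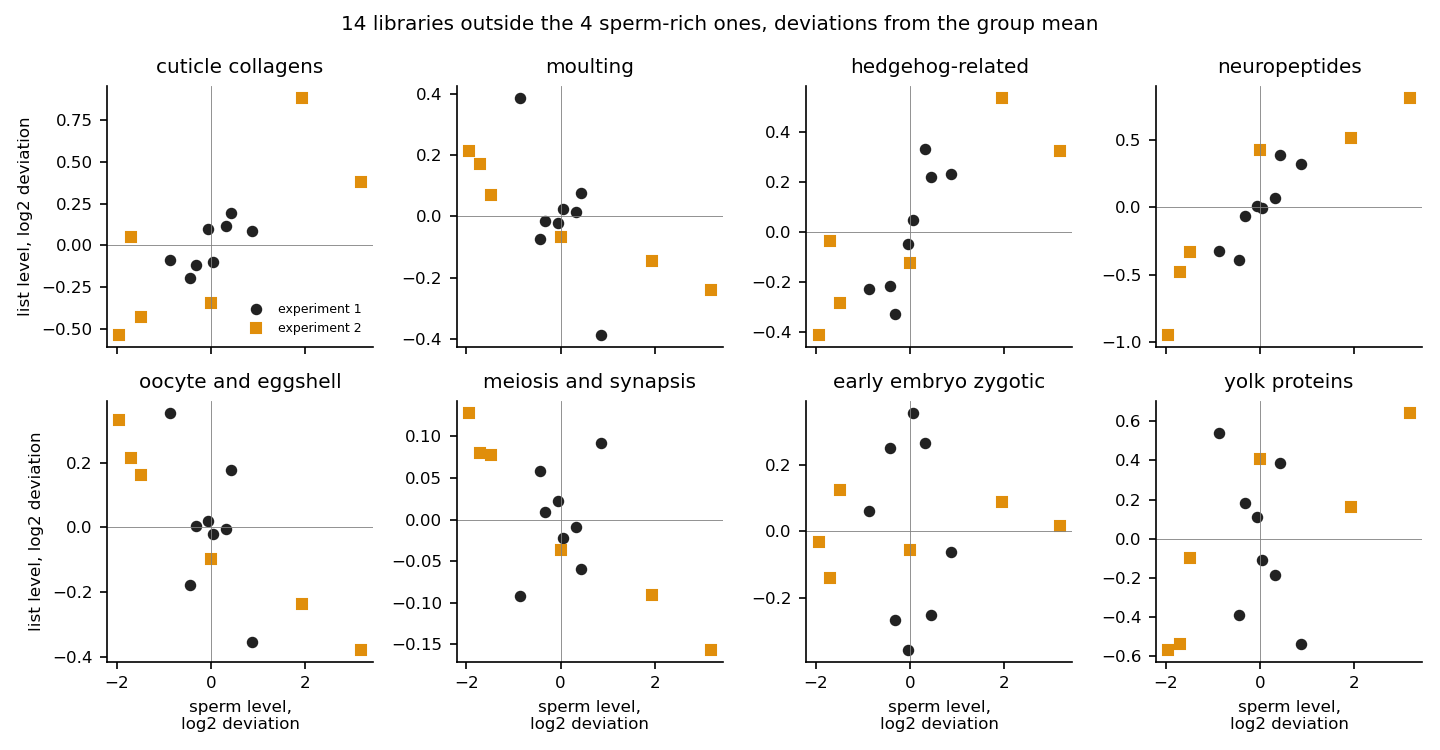
Log2 deviation of 8 list levels from the group mean against that of the sperm level, for the 8 other libraries of experiment 1 (black circles) and the 6 of experiment 2 (orange squares). Neuropeptides and hedgehog-related genes climb with the sperm level in both experiments, and oocyte genes run the other way most clearly in experiment 2, where r is -0.977.

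Cold against control and ire-1 against WT are contrasts that the choice of the 4 libraries did not use, and each was fitted with and without a term for the sperm-rich libraries (edgeR quasi-likelihood test, Benjamini-Hochberg adjusted p under 0.05). The term was chosen on these same counts, and the p-values do not account for that choice. With the term, cold raised 1362 genes (9.5%) and lowered 2438 (17%). Without it, 210 (1.46%) were raised and 542 (3.78%) lowered. All 752 genes called without the term were also called with it and in the same direction, and they made up 19.8% of the 3800 called with it. The median SE of the cold difference was 0.211 with the term and 0.300 without it. The split between raised and lowered depended on scaling: DESeq2's size factors gave 2094 raised and 2082 lowered, and upper-quartile factors 703 and 2993. Leaving out ire-1 control 1 took the counts to 617 raised and 1457 lowered, and leaving out ire-1 control 3, WT cold 2 or any ire-1 cold library took the raised count to between 723 and 836.

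Sperm genes chose the libraries and so defined the term, and no test of them is given for cold or strain. With the term, 9.5% of all tested genes were raised by cold. It raised 12 of 23 germ granule genes, 11 of 30 meiosis genes and 6 of 21 replication genes, against 0, 1 and 0 without the term. The level of hrde-1 was raised by 0.70 ± 0.16 (adjusted p = 0.00951 in edgeR) with the term and by 0.61 without it (adjusted p = 0.214). Of 41 oocyte and eggshell genes 1 was raised with the term, and 0 without it.

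Over all tested genes the share lowered by cold went from 3.78% without the term to 17% with it. Cold lowered 6 of 6 yolk genes with the term and 4 without it, 10 of 16 intestinal genes against 3, and 29 of 128 collagens (22.7%) against 3. It lowered 28 of 58 UDP-glucuronosyltransferases against 8, 24 of 50 cytochrome P450 genes against 6 and 31 of 95 C-type lectins (32.6%) against 13. Among these lists only the collagen count grew by a larger factor than the share of all genes did, and the others grew by a smaller one. For vit-2 the cold difference was -0.996 ± 0.23 with the term (adjusted p = 0.0096 in edgeR) and -0.93 without it (adjusted p = 0.108). The epidermal regulator elt-3 was lowered by cold at -1.46 ± 0.20 with the term (adjusted p = 0.000336) against an adjusted p of 0.115 without it. The intestinal regulator elt-2 was lowered in both fits (-1.39 ± 0.24, adjusted p = 0.00141 with the term and 0.0208 without it). Body wall muscle, with 1 raised and 3 lowered of 30, and basement membrane, with 0 raised and 3 lowered of 15, had few cold calls even with the term.

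**Figure D5:**
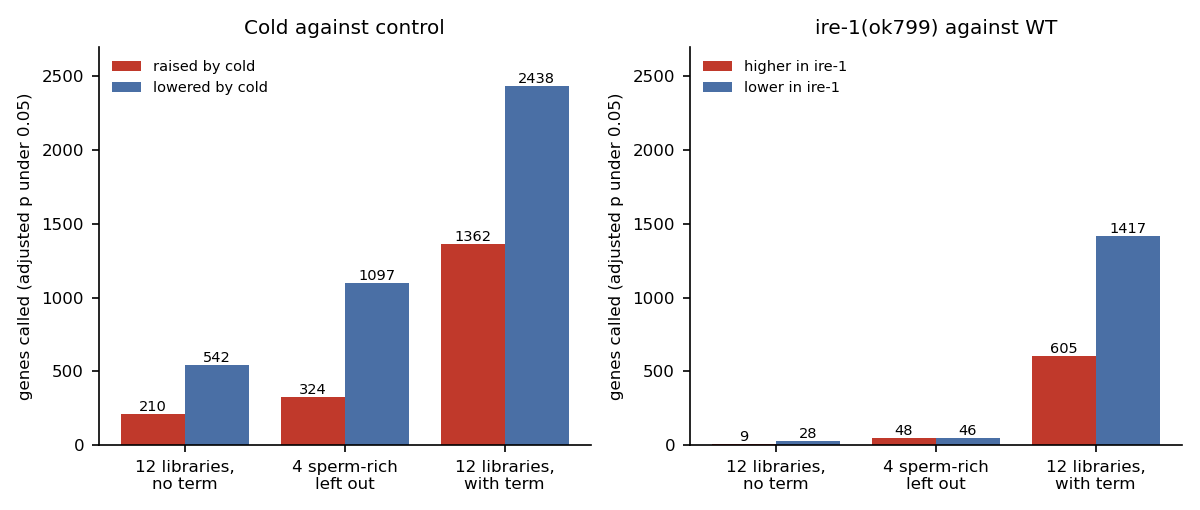
Number of genes called at an adjusted p under 0.05 for cold against control and for ire-1(ok799) against WT, from 12 libraries without the sperm-rich term, from the 8 libraries left after removing the 4, and from 12 libraries with the term. Counts are 752, 1421 and 3800 for cold and 37, 94 and 2022 for strain, each split by direction in the bars.

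In the strain contrast the counts lay further apart. With the term, 605 genes (4.22%) were higher in ire-1 and 1417 (9.88%) lower, and without it 9 (0.0627%) and 28 (0.195%). All 37 genes called without the term were called with it in the same direction, 1.83% of the 2022. When the 4 libraries were left out instead, 48 were higher and 46 lower, in a fit with fewer libraries to estimate the spread. The fit without the term also kept all 12 libraries, and the cause of the larger strain count with the term was not tested. A block pairing the strains within a condition, in place of the term, gave 430 higher and 1066 lower. With the term, leaving out ire-1 control 1 gave 278 higher and 333 lower, ire-1 control 2 gave 341 and 833, ire-1 control 3 gave 287 and 802, ire-1 cold 2 gave 181 and 567 and ire-1 cold 3 gave 289 and 766. Leaving out WT cold 2 gave 308 higher, and leaving out WT control 1 or WT control 2 gave 939 or 1314. With DESeq2's size factors 1092 were higher and 1030 lower, and with upper-quartile factors 891 and 1154. The ire-1 gene was lower in ire-1 in both fits (-1.60 ± 0.15, adjusted p = 0.000211 with the term and 0.00896 without it).

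With the term, the genes higher in ire-1 included 5 of 15 basement membrane genes, 5 of 30 body wall muscle genes and 5 of 11 tested pharynx genes, where 4.22% of all tested genes were higher, and none of these was called without it. The hemicentin gene him-4 was higher by 1.49 ± 0.23 (adjusted p = 0.00445 in edgeR) and lam-2 by 0.66 ± 0.13 (adjusted p = 0.00959). The largest of the named ones was myo-2, at 3.05 ± 0.44 (adjusted p = 0.00327 with the term and 0.0798 without it). Its level outside the sperm-rich libraries was 1.92 and 5.88 CPM in ire-1 control and 4.92 and 5.16 CPM in ire-1 cold, against 0.990 and 0.917 CPM in WT control and 1.28 and 0.697 CPM in WT cold, so for myo-2 the strains did not overlap among those 8 libraries. The summed basement membrane level there was 1190 and 673 CPM in WT control against 1024 and 1168 CPM in ire-1 control. In cold it was 1137 and 1058 CPM in WT against 1135 and 1172 CPM in ire-1, so the strains overlapped in both conditions. Body wall muscle sums likewise overlapped in both conditions, and pharynx sums overlapped in control but not in cold. Yolk genes were lower in ire-1 in 3 of 6 cases with the term and in 0 without it, ribosomal protein genes in 11 of 80 (13.8%) against 0 and cytochrome P450 genes in 8 of 50 (16%) against 0, beside 9.88% of all tested genes with the term.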

How the data were processed

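The deposited values are raw counts, 1 column per library, made by the authors with bcl2fastq, STAR 2.5.0a and HTSeq on WBcel235, per the submitters' processing notes. No label or file header names the annotation release or strand setting, so overlapping and antisense genes cannot be told apart. Libraries were poly(A)-selected with a NEBNext Ultra II kit, per the labels' protocols. Counts were fitted in R 4.3.3 with edgeR 4.0.16 (glmQLFit, TMM factors, filterByExpr with a minimum count of 10), with limma 3.58.1 and DESeq2 1.42.0 as alternatives. The edgeR fit with the sperm-rich term was run on simulated counts that took the term as given. That run could not test the choice of the term or the pairing of same-numbered libraries. Of 46748 identifiers, 14344 were tested. Symbols came from Ensembl 115 and a name table. Levels use TMM-scaled CPM, and 0.5 CPM was added before logs of list levels.

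The sperm-rich libraries and the gene lists were chosen with earlier results of these data known. Named genes were ire-1, the cell type markers, the 12 largest differences in each direction and up to 4 genes per list, with a mean of at least 10 CPM and 4 of 4 groups outside; others are marked as chosen after their values were seen. No libraries of a group were near-identical (smallest chi-square per degree of freedom 12.2). Same-numbered libraries of both strains deviated together within a condition in 6 of 6 pairs (r from 0.384 to 0.879), while over all 18 same-numbered pairs 10 exceeded 0.1 and the lowest was -0.881. The series text calls the replicates biological; if they are not separate cultures, the p-values measure technical spread only. Intervals and errors near 1 CPM include counting error. Promoter motifs were not searched here.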

Additional observations from a re-analysis of the deposited data

Results flagged for a closer look

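The germ granule helicase gene glh-1 had its sperm-rich library above the mean of the others in both control groups (0.49 in WT, 0.06 in ire-1) and below it in both cold groups (-0.31 in WT, -0.12 in ire-1). It was picked out because the direction differed between conditions. The mean of the cold differences minus that of the control differences was -0.49, and this difference was not tested, since the libraries were chosen by their sperm RNA. Levels were 630, 589, 536 and 685 CPM in the sperm-rich libraries, and the groups overlapped in ire-1 control. Values of this kind flag some genes by chance, and the cause was not tested.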

How the results depend on the processing

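The count of higher genes stayed within 1.5 times of 3179 under other scalings, filters and tools, and was 1564 at a 4-fold minimum. The count of lower genes was 153 with DESeq2's size factors in edgeR and in DESeq2, 62 with upper-quartile factors, 188 with no filter, 29 at 4-fold, 1828 with no minimum fold and 388 without the WT cold group, the last 2 added after seeing the data. Raised cold genes numbered 2094 with DESeq2's size factors, 703 with upper-quartile factors and 2453 in DESeq2, and genes higher in ire-1 numbered 1092, 891 and 1652, and 1556 with no filter. Without the sperm-rich term the counts were 210 and 542 for cold and 9 and 28 for strain, and with the 4 libraries left out 324 and 1097, and 48 and 46. With 1 library left out in turn, higher genes ranged from 2722 to 4029 and lower from 100 to 421. Cold counts ranged from 617 to 1811 raised and 1457 to 3386 lowered, and strain counts from 181 to 1314 higher and 333 to 1705 lower. Leaving out WT control 1, WT control 2, ire-1 control 1, WT cold 3 or ire-1 cold 2 gave 156, 162, 170, 207 and 164 lower genes. Leaving out a sperm-rich library or the WT cold group drops that group from the 4 of 4 rule. Leaving out any other library leaves its group 1 library to compare with, so these higher and lower counts come from an easier rule. An additive replicate block gave 3218 and 103 genes for the sperm-rich difference, 1264 and 2132 for cold and 444 and 1098 for strain, and a block pairing the strains within a condition, added after seeing the data in place of the sperm-rich term, gave 430 and 1066, so the block moved no count by over 1.5 times. The r of collagens, moulting, hedgehog-related, oocyte and neuropeptide genes lost the threshold in experiment 1 alone (0.721, -0.734, 0.857, -0.573, 0.900), in experiment 2 alone (0.766, -0.963, 0.867, -0.977, 0.922), without the 2 farthest libraries (0.496, -0.735, 0.752, -0.694, 0.943) and, added after seeing the data, without WT control 6 and WT cold 5 (0.761, -0.600, 0.866, -0.531, 0.713). With same-numbered libraries of both strains permuted together as a replicate block, also added after seeing the data, r was unchanged by construction (0.762, -0.713, 0.803, -0.807, 0.910) and the adjusted p of all 5 was 0.0556. Reversed signs were embryonic genes in experiment 1 alone (-0.109) and without the 2 farthest (-0.072), yolk genes in experiment 1 alone (-0.507) and without WT control 6 and WT cold 5 (-0.435), and meiosis genes in the same settings (0.437 and 0.144). Of 1416 values of 177 named genes under other settings none changed sign in a counted gene. The cause of these shifts was not tested.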
